A study of Mus musculus with 23 samples.

Results

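Tumors from obese mice that stayed on a high-fat diet (DIO-HFD) were set against tumors from never-obese mice on a control diet (CON-LFD), gene by gene, on whole-transcriptome arrays. The comparison took the 6 arrays titled DIO-HFD and the 6 titled CON-LFD, 12 of the 23 arrays of the series, and covered 19505 named genes. The other 11 arrays, from mice that lost weight by sleeve gastrectomy or a low-fat diet, entered only through the shared estimate of the spread. All tumors grew from E0771, a single mouse line of triple-negative breast cancer, placed orthotopically into a mammary gland's fat pad 22 weeks after the diets were assigned, in mice of the C57BL/6NCrl strain, with 1 tumor per array. DIO-HFD mice ate the diet D12492, which the labels call 60% high fat, throughout, and were made obese by it. CON-LFD mice ate the control diet D12450J and never became obese. Both groups had sham surgery, an operation without removal of stomach tissue, and no gene of host or tumor was altered. Since DIO-HFD mice differed from CON-LFD mice in body fat and in current diet alike, obesity and diet cannot be told apart, and since only E0771 was used, 1 cell line stands for the disease.

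Obesity changes what reaches a tumor: adipose tissue releases hormones, fatty acids and cytokines, and circulating insulin tends to be higher. Tumor cells respond by altering nutrient uptake, lipid handling and mitochondrial use, and they share these nutrients with macrophages, fibroblasts, vessels and lymphocytes of the same tissue. Secreted factors such as growth factors, chemokines, complement and matrix proteins carry signals between these cells. Of the immune lists, 96 of 101 interferon, 29 of 30 antigen presentation and 62 of 66 T cell genes were lower in DIO-HFD. Over all genes the share that was lower was 46.1%. The account below is about the genes outside these lists.

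Differences between the groups were many and mostly small. The values are log2 signals, on which 1 unit is a doubling, and a difference is DIO-HFD minus CON-LFD. By limma, fitted on all 23 arrays with Benjamini-Hochberg adjustment over all 19505 genes, 1 gene had an adjusted p below 0.05 (0.00513% of genes), Atp8a1, which fell in DIO-HFD. At an adjusted p below 0.1 there were 129 genes (0.661%), of which 52 were higher in DIO-HFD (0.267%) and 77 lower (0.395%). At an unadjusted p below 0.05 there were 2617 genes (13.4%), 1468 higher (7.53%) and 1149 lower (5.89%). For 225 genes (1.15%) the arrays of the groups did not overlap, 111 higher (0.569%) and 114 lower (0.584%). Among genes with an unadjusted p below 0.05 the median size was 0.53 for the higher genes and 0.74 for the lower ones, and 51 of the 1468 higher genes but 344 of the 1149 lower genes differed by more than 1. Over all genes the median difference was 0.03, 10502 (53.8%) were above 0 and 8984 (46.1%) below, and 68 (0.349%) differed by more than 1 upward and 501 (2.57%) by more than 1 downward.

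Of the 77 lower genes at an adjusted p below 0.1, 16 belonged to the interferon, antigen presentation and T cell lists, against 0 of the 52 higher genes. Centering each array on its median raised the median difference of all genes to 0.14 and turned the split at an adjusted p below 0.1 to 87 higher and 41 lower, and the fit of only the 12 arrays gave 24 higher and 80 lower, so the balance of directions depended on scaling and on the arrays in the fit. The wider count also rested on single arrays. Among the DIO-HFD arrays, removal of replicate 1 left 0 genes, of replicate 2 left 4, of replicate 3 left 2 and of replicate 4 gave 230. Among the CON-LFD arrays, removal of replicate 1 left 2 genes, of replicate 2 left 31, of replicate 3 left 62, of replicate 5 left 7 and of replicate 6 left 0. The arrays outside the comparison mattered through the shared spread: removal of DIO-LFD replicate 1 gave 281 genes, of its replicates 2, 3, 4 and 5 gave 82, 71, 55 and 206, and of DIO-VSG replicate 6 gave 64.

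**Figure D1:**
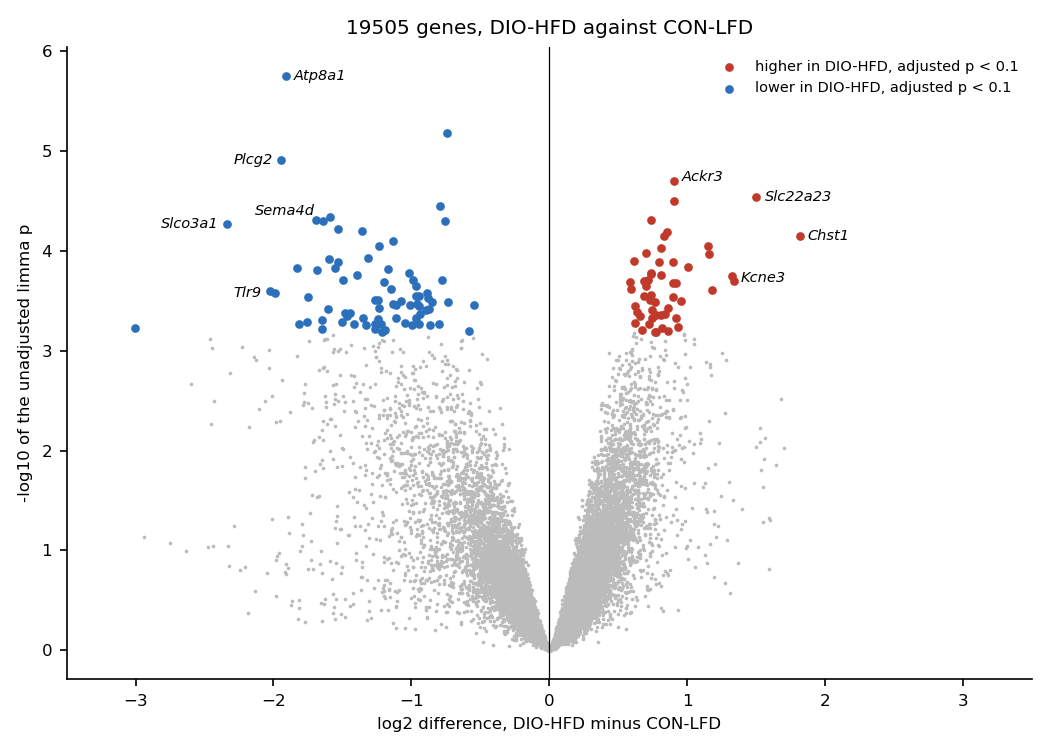
Log2 difference of each of 19505 genes, DIO-HFD minus CON-LFD, on the x axis against −log10 of the unadjusted limma p on the y axis. Red and blue points are the 52 higher and 77 lower genes with an adjusted p below 0.1, and the lower genes reach further from 0 than the higher ones.

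Genes higher in DIO-HFD tumors included genes of transport, glycan and lipid handling, chemokine scavenging and transcriptional control. Chst1, a sulfotransferase that adds sulfate to keratan sulfate chains, had the largest difference of the named higher genes. It was at 5.71 to 8.10 (median 6.81) in DIO-HFD arrays and at 3.43 to 5.79 (median 5.12) in CON-LFD arrays, a difference of 1.81 ± 0.38 (SE, n = 6 each), or 3.52-fold (limma, Benjamini-Hochberg adjusted p = 0.0772). The groups overlapped only between the lowest DIO-HFD array and the highest CON-LFD array. Slc22a23, a member of the organic ion transporter family, was at 7.63 to 8.91 (median 8.09) in DIO-HFD and at 6.11 to 7.37 (median 6.64) in CON-LFD, 2.83-fold higher (adjusted p = 0.0772), with no overlap. Kcne3, an accessory subunit of voltage-gated potassium channels, was at 5.93 to 7.29 (median 7.07) in DIO-HFD and at 5.03 to 6.39 (median 5.55) in CON-LFD, 2.51-fold higher (adjusted p = 0.0809). Its DIO-HFD replicate 5 lay within the CON-LFD range and the other DIO-HFD arrays lay above it.

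Ackr3, the atypical receptor that binds and clears the chemokine CXCL12, was tightly grouped. It was at 11.49 to 11.88 (median 11.62) in DIO-HFD and at 10.22 to 11.07 (median 10.75) in CON-LFD, a difference of 0.90 ± 0.17 (adjusted p = 0.0772), and no arrays overlapped. Insig2, the endoplasmic reticulum protein that holds back the sterol regulator SREBP, was at 9.20 to 9.87 (median 9.56) in DIO-HFD and at 8.36 to 9.0 (median 8.79) in CON-LFD, 1.78-fold higher (adjusted p = 0.0772) and without overlap. Cyp2d13, a cytochrome P450, was 2.22-fold higher, at 7.30 to 8.40 in DIO-HFD and 6.52 to 6.92 in CON-LFD, again without overlap (adjusted p = 0.0809). Slc22a4, the ergothioneine transporter, Decr1, which reduces double bonds of unsaturated fatty acids during mitochondrial oxidation, Kdsr, an early enzyme of ceramide synthesis, and Galnt1, which starts mucin-type O-glycan chains, also separated the groups completely. Their differences were 0.70 for Slc22a4, 0.64 for Decr1, 0.62 for Kdsr and 0.74 for Galnt1, with adjusted p between 0.0772 and 0.0932. Cav2, a caveolar coat protein, differed by 0.81 (adjusted p = 0.0911), with its lowest DIO-HFD array level with its highest CON-LFD array at 11.96. Its partner Cav1 differed by 0.51 and did not pass (adjusted p = 0.145). Slc22a4, Kdsr, Galnt1 and Cav2 lay outside the rule for named genes and were picked after their values were seen.

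Further genes with an adjusted p below 0.1 were Pyroxd2 (difference 1.16), Pir, a nuclear iron-binding protein (1.01), Chic1 (0.93), Ago4, an Argonaute protein of small RNA silencing (0.89), Rufy2, an endosomal protein (0.86), Cnrip1, which binds the cannabinoid receptor (0.86), and 3 zinc finger genes, Zfp87 (0.90), Zfp605 (0.84) and Zfp14 (0.82). Only Cnrip1 and Zfp87 of these 9 separated the groups without overlap. Without overlap, but above an adjusted p of 0.1, were Slc44a1, a choline transporter, at 10.47 to 11.65 in DIO-HFD and 9.11 to 10.43 in CON-LFD, Rnf125, a ubiquitin ligase, at 11.94 to 12.89 in DIO-HFD and 10.81 to 11.91 in CON-LFD, and Foxo4, a transcription factor restrained by insulin signaling, at 9.87 to 10.43 in DIO-HFD and 8.65 to 9.49 in CON-LFD. H60c, a ligand of the NK cell receptor NKG2D, differed by 1.18 (adjusted p = 0.0857) and Hsf3, of the heat shock factor family, by 0.92 (adjusted p = 0.0809). H60c, Hsf3, Gsto2, Zar1 and Ppp2r2c did not overlap between the groups, but each had a mean over all arrays below 4.88, the 40th percentile of gene means, under which signals are read here as low.

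Atp8a1, a flippase that returns phosphatidylserine to the inner face of membranes, was the gene that passed an adjusted p of 0.05. It was at 7.20 to 8.71 (median 8.14) in DIO-HFD and at 9.50 to 10.56 (median 10.01) in CON-LFD. The lowest CON-LFD array lay well above the highest DIO-HFD array. The difference was -1.91 ± 0.30 (SE), 3.76-fold lower (limma, Benjamini-Hochberg adjusted p = 0.0346). The call was lost in 8 of the fits that left out an array (adjusted p = 0.107, 0.0698 and 0.0531 when DIO-HFD replicate 1, 3 or 5 was dropped, 0.0542, 0.0718 and 0.102 for CON-LFD replicate 2, 5 or 6, and 0.0513 and 0.0501 for DIO-VSG replicate 5 or 6), while the difference stayed between -2.04 and -1.73.

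Lower genes of the wider list included genes of innate sensing, leukocyte signaling and adhesion. Slco3a1, an organic anion transporter that carries prostaglandins, was at 5.74 to 8.54 (median 8.01) in DIO-HFD and at 9.45 to 10.33 (median 9.64) in CON-LFD, 5.06-fold lower (adjusted p = 0.0772). Tlr9, the endosomal sensor of CpG DNA, was at 6.78 to 8.96 (median 8.61) in DIO-HFD and at 9.67 to 11.11 (median 10.27) in CON-LFD, 4.07-fold lower (adjusted p = 0.0857). Plcg2, the phospholipase downstream of Fc and B cell receptors, was at 5.45 to 7.88 (median 6.83) in DIO-HFD and at 8.24 to 8.95 (median 8.79) in CON-LFD, 3.85-fold lower (adjusted p = 0.0772). In all 3 genes no arrays overlapped, and in Slco3a1 and Plcg2 the DIO-HFD arrays were more widely spread than the CON-LFD arrays (SD 1.19 against 0.39 for Slco3a1 and 0.83 against 0.27 for Plcg2).

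Vcam1, the adhesion receptor for leukocyte integrins, was at 7.60 to 9.37 (median 8.69) in DIO-HFD and at 9.39 to 11.28 (median 10.35) in CON-LFD, 3.23-fold lower (adjusted p = 0.0772). Sema4d, a semaphorin of leukocytes, was at 9.08 to 10.46 (median 10.04) in DIO-HFD and at 11.12 to 11.88 (median 11.68) in CON-LFD, 3.11-fold lower (adjusted p = 0.0772). Acss1, the mitochondrial enzyme that turns acetate into acetyl-CoA, was at 7.10 to 8.88 (median 8.04) in DIO-HFD and at 8.96 to 10.39 (median 9.53) in CON-LFD, 2.94-fold lower (adjusted p = 0.0809). Each of these 3 genes kept the groups apart. The other named lower genes were AW112010 (difference -1.76), Sla, an adaptor that dampens antigen receptor signaling (-1.65), Fgl2, a fibrinogen-like protein (-1.60), Enpp4, an ectonucleotidase of vessels (-1.59), and the lymphocyte genes Gimap3 (-1.83) and Ptpn22 (-1.81), with the pseudogene Nlrp1c-ps (-1.65), at adjusted p from 0.0772 to 0.0973. Gimap3, Ptpn22 and Nlrp1c-ps overlapped between the groups or met at their edge, and AW112010, Sla, Fgl2 and Enpp4 did not. Tox, a transcription factor of T cells, and Apol7b also separated the groups, at differences of -1.74 and -1.64, with adjusted p of 0.104 and 0.122.

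**Figure D2:**
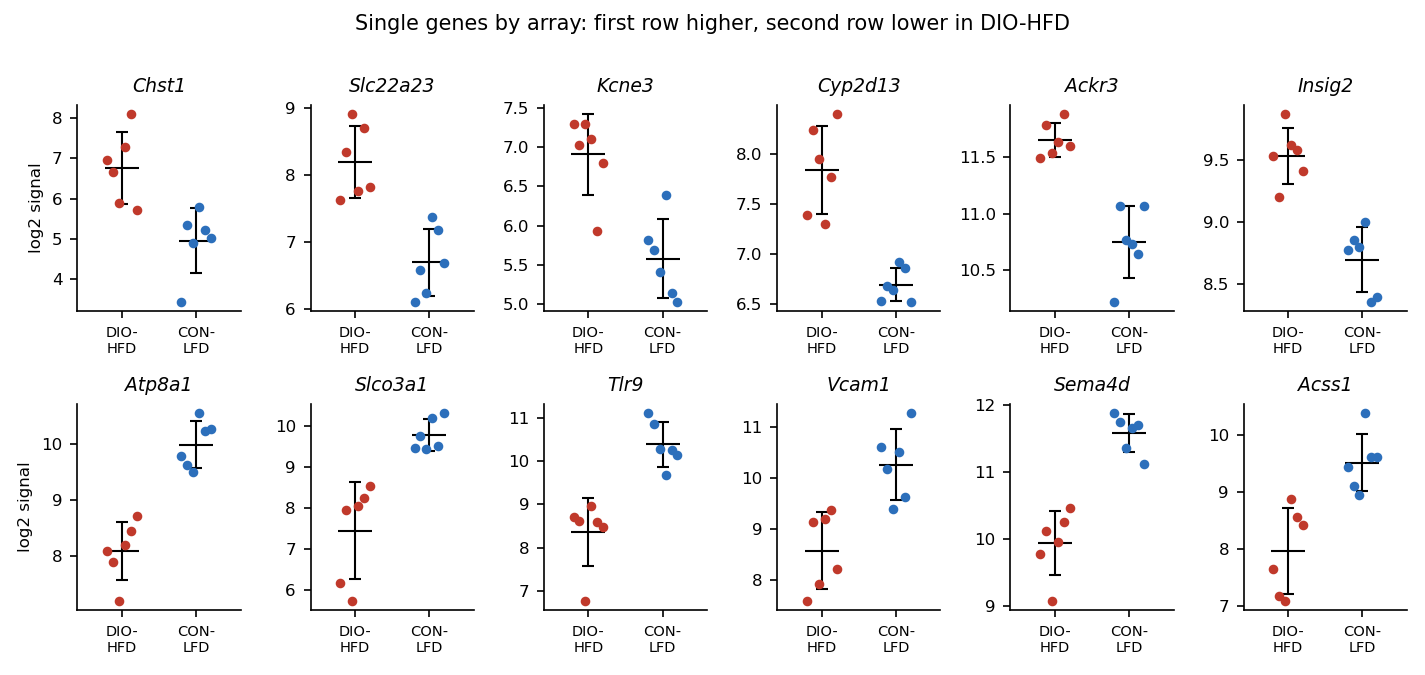
Log2 signal of 12 named genes by array, with DIO-HFD in red on the left of each panel and CON-LFD in blue on the right (6 arrays each, replicates 1 to 6 from left to right). Bars are the mean ± SD, and the y axis of each panel has its own range that does not start at 0. In all panels but Chst1 and Kcne3 the groups do not overlap.

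Sequence before the start sites was read for the genes whose arrays did not overlap, because a run of lower genes is known from interferon signaling and the letters bound by its factors can be counted. RefSeq windows of assembly GRCm38.p6, each from 250 bases before to 50 bases after a start, existed for 95 of the 114 lower genes and 87 of the 111 higher genes, and 7 motifs were searched on both strands. The letters GAAANNGAA, from the core of the interferon-stimulated response element, were in windows of 25 of the 95 lower genes (26.3%), 10 of the 87 higher genes (11.5%) and 1456 of 15691 genes with a window (9.28%). Outside the interferon, antigen presentation and T cell lists they were in 12 of 76 lower genes (15.8%). These shares depend on how many letters are searched. With 1 further A at the end of the core, the form that was searched first, they were 16 of 95 lower genes (16.8%), 1 of 87 higher genes (1.15%), 618 of all genes (3.94%) and 5 of the 76 lower genes outside those lists (6.58%), and the shorter core was taken after those values had been seen. The higher genes were therefore below all genes with the longer letters and above them with the shorter ones, while the lower genes were above all genes with both. TTCNNNGAA, the letters of a STAT site, were in 14 of the 95 lower genes (14.7%), 7 of the 87 higher genes (8.05%) and 9.02% of all genes. The E-box CACGTG was about as frequent in lower genes (11.6%) as in higher ones (11.5%), with 9.26% over all genes. CREB letters (TGACGTCA) were in 0 of the lower genes, 2 of the higher genes and 2.63% of all genes. The ETS letters GAGGAAGT were in 7 of the 95 lower genes (7.37%), 4 of the 87 higher genes (4.60%) and 554 of all genes (3.53%), and all 7 lower genes lay outside the immune lists (9.21% of 76). The hypoxia letters ACGTG, which lie inside CACGTG, were in 27 lower genes (28.4%), 22 higher genes (25.3%) and 3763 of all genes, and the antioxidant letters TGACNNNGC in 18 lower genes (18.9%), 12 higher genes (13.8%) and 2354 of all genes.

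The 250 bases before the start of 3 lower genes are shown to make the matches readable, 5′ to 3′ on the strand of the gene, with the motif in capitals. Stat2 (chr10:128270248-128270497, + strand) carries the response element in reverse complement, Coro2a (chr4:46566441-46566690, - strand), a coronin of the actin skeleton chosen after its values were seen, carries it, also in reverse complement, near the start site of 1 of its 2 windows, and Fgl2 (chr5:21372423-21372672, + strand) carries the STAT letters.
Stat2: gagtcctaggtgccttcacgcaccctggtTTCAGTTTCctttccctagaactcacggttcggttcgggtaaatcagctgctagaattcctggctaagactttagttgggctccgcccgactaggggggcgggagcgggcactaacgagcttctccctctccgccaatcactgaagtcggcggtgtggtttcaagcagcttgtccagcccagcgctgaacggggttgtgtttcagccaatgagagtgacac
Coro2a: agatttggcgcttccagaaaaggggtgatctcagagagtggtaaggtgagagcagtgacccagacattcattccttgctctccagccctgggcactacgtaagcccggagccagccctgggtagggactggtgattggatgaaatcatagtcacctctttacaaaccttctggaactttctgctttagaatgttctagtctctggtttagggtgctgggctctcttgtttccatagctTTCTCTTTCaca
Fgl2: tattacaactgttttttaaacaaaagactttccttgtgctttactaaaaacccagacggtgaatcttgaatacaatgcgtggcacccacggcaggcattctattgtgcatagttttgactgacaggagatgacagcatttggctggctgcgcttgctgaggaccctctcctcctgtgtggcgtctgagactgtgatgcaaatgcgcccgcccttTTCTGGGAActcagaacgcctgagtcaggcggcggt
Stat2, a transcription factor of interferon signaling, was at 12.01 to 12.84 in DIO-HFD and 13.06 to 13.85 in CON-LFD. Coro2a was at 7.07 to 8.79 (median 8.45) in DIO-HFD and at 9.15 to 10.44 (median 9.38) in CON-LFD (difference -1.44, adjusted p = 0.124), and Fgl2 at 10.88 to 13.14 in DIO-HFD and 13.26 to 13.82 in CON-LFD. A match describes the letters only and does not show that a factor was bound.

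Several of the lower genes are known from macrophages and other leukocytes, and markers of those cells were lower in DIO-HFD as well. Of 18 macrophage markers measured, all above the low-signal limit, 17 were lower in DIO-HFD, 11 of them at an unadjusted p below 0.05. Their median difference was -0.77. Over all genes 46.1% were lower, and 5.89% were lower at that p. The mean of the list was 10.58 to 12.18 in DIO-HFD arrays and 11.98 to 12.66 in CON-LFD arrays. Csf1r, the receptor that macrophages need to survive, was at 9.95 to 12.25 (median 11.13) in DIO-HFD and at 11.61 to 12.59 (median 12.29) in CON-LFD (adjusted p = 0.147). Dendritic cell markers ran the same way (17 of 18 lower, list mean 7.44 to 8.48 in DIO-HFD and 8.08 to 8.90 in CON-LFD), whereas neutrophil markers did not (12 of 18 higher, median 0.29). In bulk tumors, fewer cells of a type and less RNA per cell cannot be told apart, and the part of leukocyte content in the lower genes was not tested.

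Markers of other tissues were uneven across arrays. Skeletal muscle markers ranged from 5.13 to 9.36 in DIO-HFD and from 4.97 to 14.37 in CON-LFD, with CON-LFD replicates 3 and 5 at 12.50 and 14.37. Adipocyte markers ranged from 5.63 to 11.25 in DIO-HFD and from 6.15 to 7.62 in CON-LFD, with DIO-HFD replicate 5 alone at 11.25. Fibroblast markers (median difference -0.21) and endothelial markers (-0.09) overlapped widely. Mammary epithelial markers were at low signal for 16 of 18 genes, Krt8 and Cdh1 being the exceptions. A fit that dropped the 8 arrays rich in muscle transcripts, from all 4 groups, gave 18 genes with an adjusted p below 0.1, all lower in DIO-HFD, and 12 of them were among the 129. At an unadjusted p below 0.05 it gave 1075 higher and 1119 lower genes. Atp8a1 kept its call there (adjusted p = 0.0419). Of 176 genes followed through all fits, 18 changed their difference by more than 1.5 times in that fit, none of them with an adjusted p below 0.1 in the fit of all arrays. Among the genes taken up further on, those whose value in that fit is not given with them were Apln (0.90), Igfbp5 (-0.55), Ccl11 (-0.93), Ccl20 (0.41), Egln3 (0.26), Sirt5 (0.25), Pdha1 (0.70) and Slc40a1 (0.51).

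**Figure D3:**
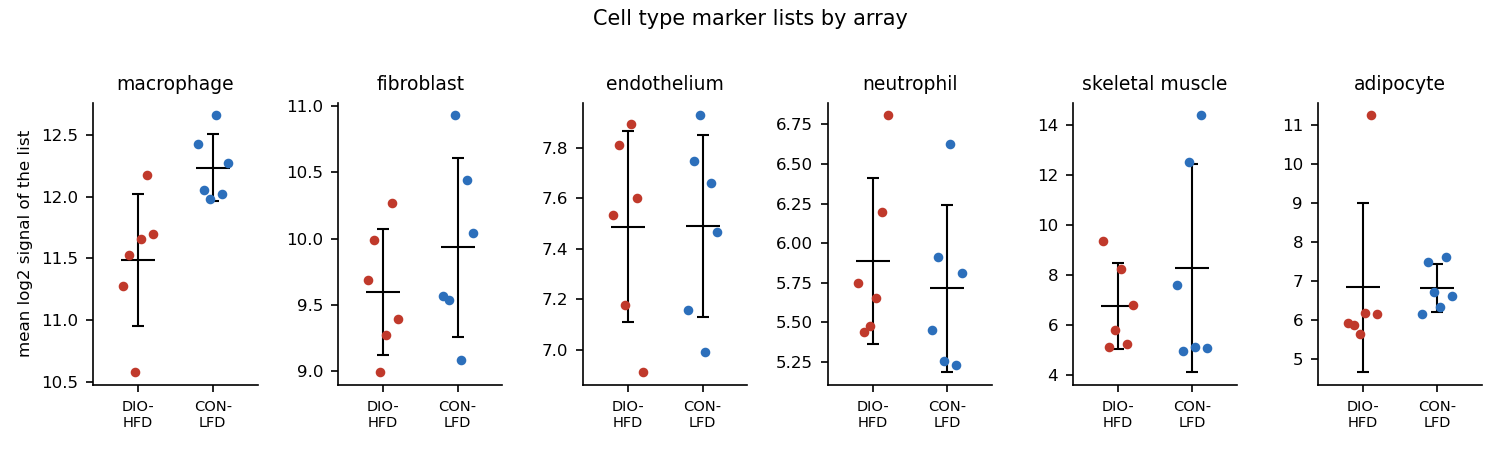
Mean log2 signal of the members of 6 cell type marker lists by array, with DIO-HFD in red on the left and CON-LFD in blue on the right of each panel (6 arrays each), and bars for the mean ± SD. Axes do not start at 0. Macrophage means lie lower in DIO-HFD, muscle is high in CON-LFD replicates 3 and 5, and adipocyte is high in DIO-HFD replicate 5.

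Secreted factors were mixed in direction, and few passed the wider threshold. Of 42 measured growth factors of the VEGF, PDGF, FGF and EGF families, 3 were higher and 1 lower at an unadjusted p below 0.05. The list median was -0.05. Over all genes 7.53% were higher and 5.89% lower at that p, and neither side of this list exceeded those shares. The higher growth factors were the EGF receptor ligands Ereg and Btc and the vessel-destabilizing factor Angpt2. Ereg, epiregulin, was at 11.90 to 13.45 (median 12.74) in DIO-HFD and at 10.73 to 12.48 (median 11.58) in CON-LFD, 2.13-fold higher. Btc, betacellulin, was at 8.17 to 10.89 (median 9.62) in DIO-HFD and at 7.22 to 9.10 (median 8.16) in CON-LFD, 2.35-fold higher. Both overlapped between the groups and missed the threshold (adjusted p = 0.191 for Ereg and 0.204 for Btc). Angpt2 differed by 1.13 and the lymphatic growth factor Vegfc by -0.69 (adjusted p = 0.337 and 0.149).

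Igfbp3, the main carrier of insulin-like growth factors, was at 10.08 to 12.18 (median 11.46) in DIO-HFD and at 8.82 to 10.38 (median 9.87) in CON-LFD, 2.88-fold higher (adjusted p = 0.203). Only the lowest DIO-HFD array fell inside the CON-LFD range. It was the 1 higher gene among 26 of the insulin and IGF axis at an unadjusted p below 0.05, with Pik3r1, a regulatory subunit of PI3 kinase, the 1 lower gene (difference -0.42). Igfbp5 differed by -1.18 with wide spread (adjusted p = 0.512), and by -0.70 with CON-LFD replicate 5 left out.

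Adipokines and systemic hormones held 3 higher and 2 lower genes of 30 at an unadjusted p below 0.05, with a median of 0.08. The shares of all genes at that p were 7.53% higher and 5.89% lower. Apln, apelin, a peptide of vessels and adipose tissue, was at 7.16 to 9.27 (median 8.34) in DIO-HFD and at 5.50 to 8.33 (median 6.83) in CON-LFD, 2.89-fold higher (adjusted p = 0.183). Stc1, stanniocalcin, was at 8.74 to 9.67 (median 8.92) in DIO-HFD and at 7.07 to 9.31 (median 8.06) in CON-LFD, 1.98-fold higher (adjusted p = 0.182). CON-LFD arrays reached into the DIO-HFD range for both. Itln1, the third of the higher genes, and Fndc5, 1 of the lower, were at low signal. Lep, leptin, the hormone of fat mass, was at 2.84 to 13.35 in DIO-HFD but had a median of 3.82 there, against 2.93 to 5.87 with a median of 3.56 in CON-LFD. Its difference of 1.31 rested on DIO-HFD replicate 5, the array with the adipocyte markers, and was -0.31 without it.

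Chemokine ligands numbered 2 higher and 4 lower of 31 at an unadjusted p below 0.05 (median -0.12), beside 7.53% and 5.89% of all genes. Ppbp, a platelet chemokine that draws neutrophils, was at 5.28 to 8.07 (median 6.53) in DIO-HFD and at 4.04 to 7.28 (median 4.88) in CON-LFD, 2.82-fold higher (adjusted p = 0.211), and Ccl20 was 0.73 higher at low signal. Ccl11, which draws eosinophils, differed by -1.42, Cxcl16, a ligand for CXCR6 on T cells, by -1.03, and Ccl4 by -0.92 (adjusted p from 0.248 to 0.303). For interleukins and TNF family ligands the counts were 3 higher and 6 lower of 48, beside the same shares of all genes. Il18bp, which binds and neutralizes interleukin 18, was at 7.75 to 8.57 (median 8.44) in DIO-HFD and at 9.14 to 10.05 (median 9.31) in CON-LFD, 2.25-fold lower (adjusted p = 0.0809), without overlap. Tnfsf10, the death ligand TRAIL, differed by -1.05 (adjusted p = 0.174), and Il7, a survival factor of lymphocytes, was at 4.48 to 6.88 in DIO-HFD and 6.05 to 7.62 in CON-LFD (adjusted p = 0.237).

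Complement and acute phase genes were lower where they differed, with 0 higher and 7 lower of 38 at an unadjusted p below 0.05 and a median of -0.30. Over all genes 7.53% were higher and 5.89% lower at that p, with a median of 0.03. Cfb, factor B of the alternative complement pathway, was at 6.38 to 9.73 (median 9.11) in DIO-HFD and at 10.44 to 11.31 (median 10.69) in CON-LFD, 3.98-fold lower (adjusted p = 0.0857), and no arrays overlapped. Serping1, the C1 inhibitor, was at 8.48 to 12.24 (median 9.86) in DIO-HFD and at 10.89 to 12.32 (median 11.62) in CON-LFD, 3.02-fold lower with overlap (adjusted p = 0.165). C1qa, a recognition subunit of the classical pathway made by macrophages, differed by -0.95, Cfp, properdin, by -0.96, and Cp, ceruloplasmin, by -1.41 (adjusted p from 0.196 to 0.275).

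Matrix genes leaned lower, with 1 higher and 9 lower of 64 at an unadjusted p below 0.05, 41 below 0 and a median of -0.23. Of all genes 7.53% were higher and 5.89% lower at that p, and 46.1% were below 0. Tnc, tenascin C, a matrix protein of tumor stroma, was at 10.33 to 11.69 (median 11.27) in DIO-HFD and at 10.38 to 13.96 (median 12.94) in CON-LFD, 3.14-fold lower (adjusted p = 0.186). Its lowest CON-LFD array lay inside the DIO-HFD range and the median CON-LFD value lay above all DIO-HFD arrays. The chains of type I collagen, Col1a1 (difference -1.72) and Col1a2 (-1.90), overlapped between the groups (adjusted p = 0.298 and 0.364), and Col1a2 differed by -1.22 with DIO-HFD replicate 3 left out. With the arrays rich in muscle transcripts removed, the matrix list had a median of 0.02, so its direction was not kept, and the fibroblast list moved to 0.01. Proteases and their inhibitors gave 3 higher and 9 lower of 62 at an unadjusted p below 0.05. The cathepsins Ctss (difference -0.89) and Ctsz (-0.41) were among the lower ones, Ctsz without overlap (adjusted p = 0.183). In the list of vesicle secretion, 5 of 36 were higher and 6 lower at an unadjusted p below 0.05. Rab27a, a small GTPase of exosome release, was at 6.38 to 7.80 (median 7.17) in DIO-HFD and at 7.86 to 8.66 (median 8.23) in CON-LFD, 2.22-fold lower (adjusted p = 0.0857), and Tsg101, a sorting subunit of the ESCRT machinery, was at 14.78 to 15.11 in DIO-HFD and 14.31 to 14.74 in CON-LFD, 1.34-fold higher (adjusted p = 0.152). Neither gene overlapped between the groups.

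**Figure D4:**
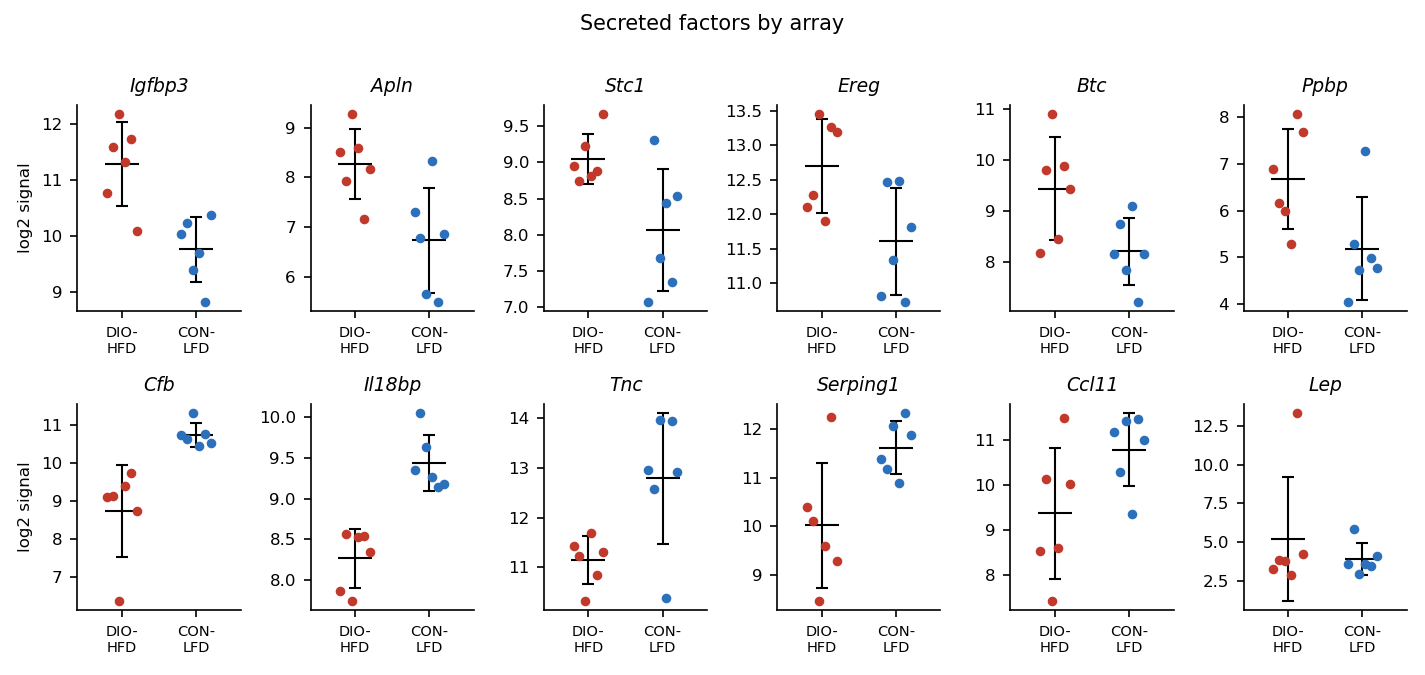
Log2 signal of 12 secreted factors by array, with DIO-HFD in red on the left and CON-LFD in blue on the right of each panel (6 arrays each, replicates 1 to 6 from left to right) and bars for the mean ± SD. Axes do not start at 0. Cfb and Il18bp separate the groups, and Lep is at 13.35 in DIO-HFD replicate 5 and at or below 5.87 in the other arrays.

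Metabolic genes differed by small steps. At an unadjusted p below 0.05, fatty acid synthesis (2 of 30) and serine, glycine and one-carbon metabolism (1 of 29) had members on the lower side only. Of the 24 metabolic lists, 8 had members on the higher side only. In 4 of these, branched-chain amino acid breakdown (33.3% of members higher), mitochondrial fatty acid oxidation (29.4%), tryptophan, kynurenine and NAD (24.1%) and the peroxisome (18.9%), the share was above the 7.53% of all genes by more than in the others, which were hypoxia targets (13.8%), glycogen and pentose phosphate (3 of 23), the citric acid cycle (9.09%) and glutamine, aspartate and arginine (4.0%). For breakdown of the branched-chain amino acids leucine, isoleucine and valine, 20 of 24 members were higher in DIO-HFD, 8 of them at an unadjusted p below 0.05 and 0 lower, beside 7.53% and 5.89% of all genes, with a median of 0.28 beside 0.03 for all genes. The mean of the list was 10.78 to 11.11 in DIO-HFD arrays and 10.52 to 10.84 in CON-LFD arrays. Hibch, of the valine pathway, was at 7.32 to 8.80 (median 8.37) in DIO-HFD and at 7.12 to 8.19 (median 7.58) in CON-LFD, 1.62-fold higher (adjusted p = 0.211). Mmut, the mutase that delivers propionate carbon to the citric acid cycle, differed by 0.54, Ivd, of leucine breakdown, by 0.55, Oxct1, which activates ketone bodies, by 0.37, and Dld, the shared lipoamide dehydrogenase, by 0.37, with adjusted p from 0.277 to 0.305. Overlap between the groups was present in each of these genes.

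Mitochondrial fatty acid oxidation had 10 of 34 members higher at an unadjusted p below 0.05 and 0 lower (median 0.11). Its list mean was 9.31 to 9.67 in DIO-HFD arrays, wholly inside the 9.23 to 9.68 of CON-LFD arrays. Decr1 was at 9.45 to 10.03 (median 9.71) in DIO-HFD and at 8.74 to 9.35 (median 9.15) in CON-LFD, and Ech1, which also handles unsaturated chains, was at 13.03 to 13.63 (median 13.25) in DIO-HFD and at 12.29 to 13.19 (median 12.65) in CON-LFD, 1.52-fold higher (adjusted p = 0.115). Acad11 and Acaa2, which act on other steps, differed by 0.70 and 0.46 (adjusted p = 0.270 and 0.256). The peroxisome list had 7 of 37 higher and 0 lower at that p (median 0.20). Its means, 8.88 to 9.23 in DIO-HFD arrays and 8.66 to 8.93 in CON-LFD arrays, overlapped. Scp2, a thiolase and lipid carrier, was at 10.05 to 10.65 in DIO-HFD and 9.30 to 10.07 in CON-LFD, Pex3 and Pex6, which build peroxisomes, differed by 0.53 and 0.77, and Abcd4, a transporter of the same family as the peroxisomal fatty acid carriers, by 0.67 (adjusted p from 0.110 to 0.139). The branched-chain, fatty acid oxidation and peroxisome lists stayed above 0 in median after quantile normalization and with every array left out in turn. The median of all genes was itself above 0, at 0.03 in the main fit. They did so too in the fit that dropped the arrays rich in muscle transcripts. Centering each array added the same amount to every gene, so it could only raise these medians and was no check of them.

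The list of tryptophan, kynurenine and NAD metabolism had 7 of 29 higher and 0 lower at an unadjusted p below 0.05, with a median of 0.07. Its means, 7.43 to 7.78 in DIO-HFD arrays and 7.35 to 7.65 in CON-LFD arrays, overlapped. Sirt2, an NAD-dependent deacetylase, was at 11.64 to 12.23 (median 11.99) in DIO-HFD and at 11.22 to 11.58 (median 11.46) in CON-LFD, 1.47-fold higher without overlap (adjusted p = 0.111). Nadsyn1, the last enzyme of NAD synthesis from tryptophan and nicotinic acid, differed by 0.57, the mitochondrial deacylase Sirt5 by 0.52, and Aox1, an aldehyde oxidase, by 0.85 (adjusted p from 0.158 to 0.219). The citric acid cycle gave 3 of 33 higher (9.09%, near the 7.53% of all genes) and 0 lower, Suclg2 and Pdha1 among them at 0.47 and 0.46.

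Oxidative phosphorylation went the other way in its median. Of 56 members, most of them subunits of the respiratory complexes, 46 were lower, beside 46.1% of all genes. The steps were small (median -0.16). List means overlapped, at 12.50 to 12.94 in DIO-HFD arrays and 12.66 to 13.14 in CON-LFD arrays. The highest was that of CON-LFD replicate 5, an array rich in muscle transcripts. At an unadjusted p below 0.05, 2 were higher and 4 lower, beside 7.53% and 5.89% of all genes. Ndufb7 of complex I was at 10.03 to 10.81 (median 10.12) in DIO-HFD and at 10.25 to 11.22 (median 10.82) in CON-LFD (difference -0.56, adjusted p = 0.212), and Atp5g3 of the ATP synthase differed by -0.32 (adjusted p = 0.206). Ndufs1 of complex I differed by 0.41 and Uqcrfs1, the iron-sulfur protein of complex III, by 0.31 (adjusted p = 0.328 and 0.280). Centering each array added the same amount to every gene and gave a list median of -0.04, against 0.14 for all genes. In the main fit these were -0.16 and 0.03. Centering could not change which of them was lower, so it was no check of this order.

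Glycolysis showed no common direction, with 2 higher and 3 lower of 30 at an unadjusted p below 0.05, beside 7.53% and 5.89% of all genes. The glucose transporter Slc2a3 was at 9.24 to 10.83 (median 10.40) in DIO-HFD and at 8.20 to 9.76 (median 9.26) in CON-LFD, 1.98-fold higher (adjusted p = 0.161), and Hk2, the inducible hexokinase, was at 10.69 to 11.68 in DIO-HFD and 9.68 to 10.68 in CON-LFD, just without overlap (adjusted p = 0.343). Hk3, the hexokinase of leukocytes, differed by -1.31 and Pdk2 by -1.27 (adjusted p = 0.194 and 0.316). Pdk2 was highest in the CON-LFD replicates 3 and 5 that were rich in muscle transcripts, at 9.37 and 10.70, and differed by -0.76 with CON-LFD replicate 5 left out and by -0.49 with the muscle-rich arrays removed. Targets of hypoxia were higher in 23 of 29, with 4 at an unadjusted p below 0.05 and 0 lower (median 0.16). Ndrg1 differed by 0.79, Kdm3a, a histone demethylase, by 0.62, Egln3, an oxygen sensor, by 0.50 and Bnip3l, a mitophagy receptor, by 0.47 (adjusted p from 0.204 to 0.352). DIO-HFD replicate 3 had the highest list mean, 11.64, and the other DIO-HFD arrays, at 10.91 to 11.08, lay within the CON-LFD range of 10.57 to 11.19.

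Lipid and sterol genes were divided. For cholesterol synthesis and transport 4 of 40 were higher and 4 lower at an unadjusted p below 0.05, beside 7.53% and 5.89% of all genes. Insig2, which holds back SREBP, was among the higher ones. On the synthesis side, Idi1 was at 12.07 to 13.15 (median 12.66) in DIO-HFD and at 10.94 to 12.48 (median 11.98) in CON-LFD (difference 0.71, adjusted p = 0.169). Hsd17b7 differed by 0.70 (adjusted p = 0.187). With the muscle-rich arrays removed these differences were 0.39 for Idi1 and 0.37 for Hsd17b7. On the export side Abcg1 was at 9.44 to 11.53 (median 10.18) in DIO-HFD and at 10.44 to 12.34 (median 11.25) in CON-LFD (difference -1.10, adjusted p = 0.196). Fatty acid synthesis gave 0 higher and 2 lower of 30 at that p, Acss1 and Scd3, a desaturase at low signal. Among lipid uptake genes, Gpihbp1, which anchors lipoprotein lipase to capillaries, differed by 0.88, Plin3, a lipid droplet coat protein, by 0.40 and Lipg, endothelial lipase, by -1.06 (adjusted p from 0.188 to 0.286). The phospholipid list held Atp8a1 together with the scramblases Plscr4 (difference 1.65, adjusted p = 0.236) and Xkr8 (0.69, adjusted p = 0.212), which move phosphatidylserine without using ATP, and Asah1, acid ceramidase (0.40, adjusted p = 0.169). Eicosanoid genes gave 4 higher and 9 lower of 52 at an unadjusted p below 0.05, beside 7.53% and 5.89% of all genes. Tbxas1, thromboxane synthase, was at 7.66 to 10.15 (median 8.37) in DIO-HFD and at 9.50 to 11.40 (median 9.94) in CON-LFD (difference -1.72, adjusted p = 0.155), Cysltr2, a leukotriene receptor, differed by -1.35 and Pla2g2d, a secreted phospholipase, by -1.64, while Ptgr1, which inactivates prostaglandins and leukotrienes, differed by 0.72 (adjusted p from 0.125 to 0.169).

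Nucleotide, amino acid, iron and redox genes had members in both directions. Ampd3, AMP deaminase, was at 9.30 to 9.88 (median 9.64) in DIO-HFD and at 10.12 to 11.82 (median 10.94) in CON-LFD, 2.37-fold lower without overlap (adjusted p = 0.0928). The deoxynucleotide enzymes Dck (difference -0.67) and Samhd1 (-0.51) also kept the groups apart (adjusted p = 0.192 and 0.134), and the purine enzyme Paics differed by 0.47 (adjusted p = 0.235). Slc40a1, the iron exporter ferroportin, was at 7.54 to 9.51 (median 9.20) in DIO-HFD and at 4.91 to 10.36 (median 7.09) in CON-LFD, and Slc11a1, a phagosomal metal transporter of macrophages, differed by -1.18 (adjusted p = 0.365 and 0.257). Keap1, the negative regulator of the antioxidant factor NRF2, was at 8.88 to 10.36 (median 9.53) in DIO-HFD and at 9.75 to 10.45 (median 10.34) in CON-LFD (difference -0.67, adjusted p = 0.122), and its pathway's gene Akr1b8 differed by 0.52 (adjusted p = 0.243). Of 60 glutathione and antioxidant genes, 4 were higher and 4 lower at an unadjusted p below 0.05, beside 7.53% and 5.89% of all genes. The amino acid carriers Slc7a2 and Slc7a8 differed by -1.64 and -1.03, and the mitochondrial aspartate carrier Slc25a13 by 0.45 (adjusted p from 0.159 to 0.212).

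**Figure D5:**
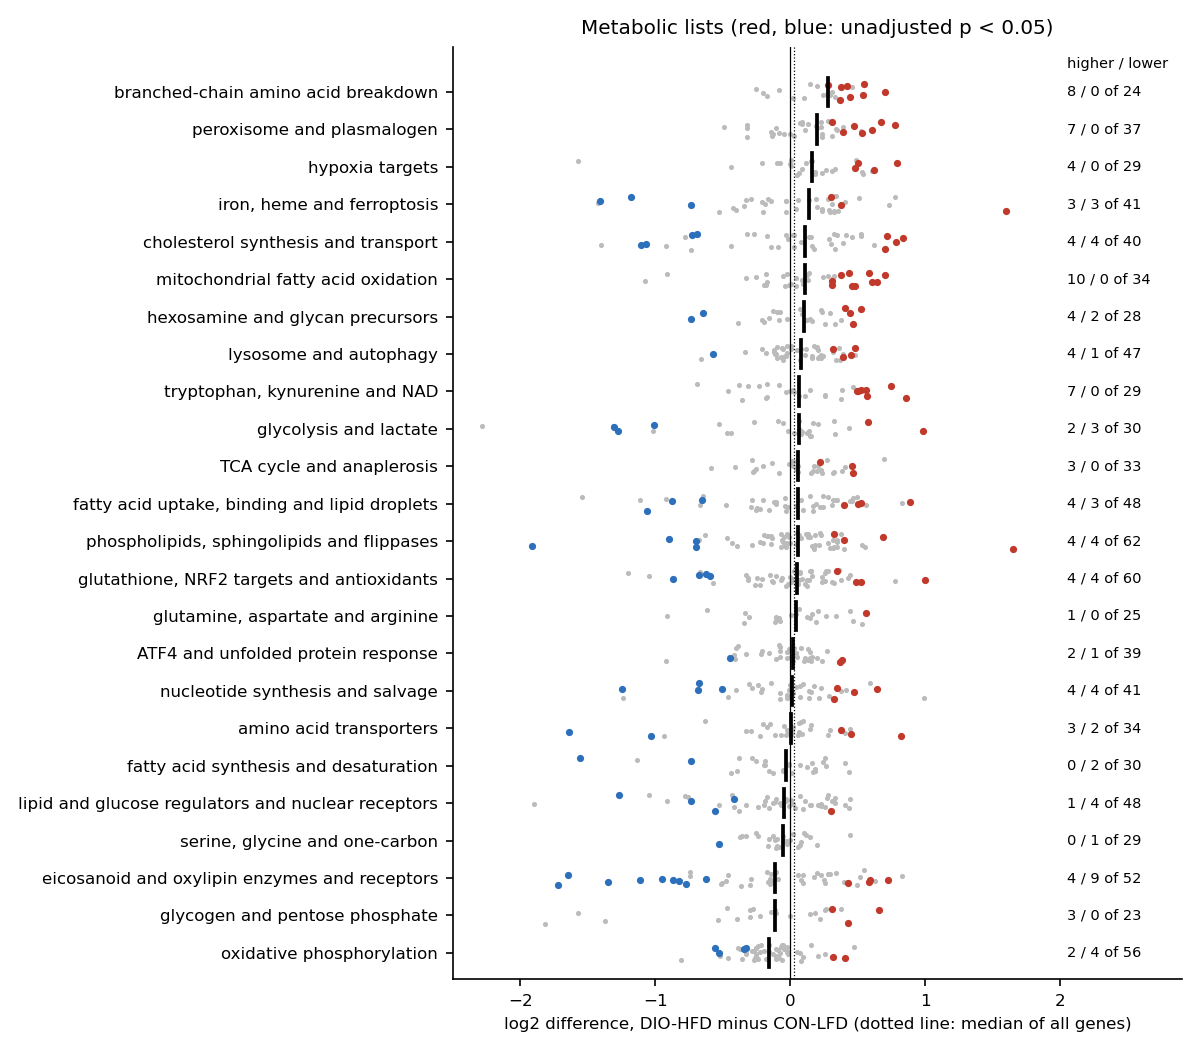
Log2 difference, DIO-HFD minus CON-LFD, of each measured member of 24 metabolic lists (points, red or blue at an unadjusted limma p below 0.05), with a black bar at the list median and a dotted line at the median of all genes. Numbers on the right give members higher and lower at that p of those measured, and branched-chain amino acid breakdown, mitochondrial fatty acid oxidation, the peroxisome and the NAD list are 4 of the 8 lists with members on the higher side only.

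Cell cycle genes did not lean either way, with 20 of 40 higher, 20 lower and a median of -0.01. At an unadjusted p below 0.05, 2 were higher and 3 lower, beside 7.53% and 5.89% of all genes. Cdkn1b, the p27 inhibitor of cyclin-dependent kinases, differed by 0.49, and the S phase drivers Ccne1 and E2f2 by -0.55 and -0.80 (adjusted p from 0.133 to 0.245). Ccne1 did not overlap between the groups, at 10.44 to 11.24 in DIO-HFD and 11.25 to 11.89 in CON-LFD. Of 43 epithelial and mesenchymal genes, 24 were higher and 19 lower. At an unadjusted p below 0.05, 2 were higher and 0 lower, a share that did not exceed the 7.53% of all genes. These 2 were mesenchymal transcription factors. Prrx1 was at 14.32 to 15.15 (median 14.73) in DIO-HFD and at 13.70 to 14.30 (median 13.95) in CON-LFD, 1.70-fold higher without overlap (adjusted p = 0.134), and Zeb1 differed by 0.45 (adjusted p = 0.229). Guidance and differentiation factors gave few members. Sema3a differed by 1.55 with wide spread (adjusted p = 0.378; 1.02 with CON-LFD replicate 5 left out), Slit3 by -0.98 (-0.60 with DIO-HFD replicate 3 left out) and the netrin receptor Unc5a by -0.74 (-0.46 with DIO-HFD replicate 6 left out), and Gdf3, Wnt7a and Sfrp2, of the TGF-beta and WNT families, by -1.13, -0.63 and -1.31 (adjusted p = 0.104 for Gdf3, 0.156 for Wnt7a and 0.429 for Sfrp2), Wnt7a at low signal.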

How the data were processed

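RNA from E0771 tumors was measured on Clariom S HT mouse arrays (Affymetrix). The deposited values are log2 signals, for which the authors used the Transcriptome Analysis Console with signal space transformation followed by robust multichip average scaling. They were analysed as given. Values lay between 1.36 and 18.69, the medians of the 12 arrays from 6.13 to 6.50, and the correlations between pairs of them from 0.961 to 0.990, with 0 identical pairs. Arrays carry no counts, so their number limits the precision, and p-values measure the spread between single tumors, which the labels do not tie to separate cages or experiments.

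Of 22206 probe sets, 19572 had 1 gene symbol and 2634 had none here. For 55 genes with several probe sets, the one with the highest mean was used. Groups came from titles. The source name gives another group for DIO-LFD replicate 1 and DIO-VSG replicate 1, neither of them in the comparison by title. It calls DIO-LFD replicate 1 obese without weight loss and DIO-VSG replicate 1 low-fat diet. The fit with groups from the source names therefore counted DIO-LFD replicate 1 as a DIO-HFD array. Each gene was tested two-sided with limma 3.58.1 in R 4.3.3 (a mean per group, 19 residual and 4.00 prior degrees of freedom), with Benjamini-Hochberg adjustment. For the tumor arrays the methods name no test of single genes. On simulated data for this comparison, 50 genes of each size among 19505 were changed. At an adjusted p below 0.05 the fit called 12%, 52%, 96% and 98% of genes changed by 0.5, 1, 2 and 3, and 2 unchanged genes. The simulated noise was normal and independent between genes, without the muscle, adipocyte or leukocyte content that real tumors share across genes. These shares therefore do not tell how many changed genes the fit finds in the real arrays.

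The groups, the 53 gene lists (1995 genes, 1813 measured) and the tests were chosen with earlier results of these data known. The text names genes with an adjusted p below 0.05, the 15 largest differences in each direction below 0.1 with a mean above the low-signal limit, the 10 largest in each direction without overlap, and for each list up to 4 members with the smallest p, 2 with the largest difference and all below 0.1. Predicted gene models, receptor segments of lymphocytes and the interferon, antigen presentation and T cell lists were left out of the first 3 sets, which left 40 higher and 53 lower genes below 0.1. Slc22a4, Kdsr, Galnt1 and Cav2 fell outside this naming rule and were picked from the genes below 0.1 after their values were seen. Mean differences are given with standard errors from the fit. Alternatives changed the filter, arrays, variance model, scaling, weights, covariates, probe set rule and group labels, and left out each array in turn.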

Additional observations from a re-analysis of the deposited data

Results flagged for a closer look

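In each group of 6 arrays, the values of each named gene and the mean of each list were checked for a lone array far from the other 5. Of 458 groups checked, 41 had such an array, and for independent groups chance gives about 1 in 20. These groups share arrays and members, so the number of such arrays was not tested. They were spread unevenly, with 12 in DIO-HFD replicate 5, 7 in CON-LFD replicate 1 and 5 in DIO-HFD replicate 3. All values are log2 signals, with the range of the other 5 arrays in parentheses.

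DIO-HFD replicate 5 was the array with the adipocyte markers, at a list mean of 11.25 (5.63 to 6.17). Lep was 13.35 there (2.84 to 4.20), Mest, an imprinted gene of growing adipose tissue, 14.14 (7.93 to 9.89), Cp 10.98 (7.09 to 8.18), Slc7a2 7.96 (3.89 to 4.79) and Kcne3 5.93 (6.79 to 7.29). List means that stood apart on it were adipokines at 8.72 (7.28 to 7.62), fatty acid uptake and lipid droplets at 9.33 (8.02 to 8.22), proteases at 9.48 (8.72 to 8.95), eicosanoid genes at 7.54 (6.84 to 7.10), iron and heme at 10.89 (10.06 to 10.33) and mammary epithelium at 5.13 (4.05 to 4.40).

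DIO-HFD replicate 3 had low Tlr9, 6.78 (8.49 to 8.96), low Cfb, 6.38 (8.73 to 9.73), and low Col1a2, 5.84 (9.03 to 10.68). On the same array Esm1, a proteoglycan of sprouting vessels, was 8.73 (5.07 to 6.37) and the hypoxia list 11.64 (10.91 to 11.08). Its macrophage list mean, 10.58, was the lowest of the DIO-HFD arrays. The other DIO-HFD values that stood apart were Pgm2 at 11.35 (11.73 to 11.91) and Ndufb7 at 10.81 (10.03 to 10.21) on replicate 4, and Ppp2r2c at 5.89 (4.28 to 4.69), Gdf3 at 6.46 (4.85 to 5.45), Unc5a at 6.60 (7.98 to 8.70) and Mgat5 at 9.97 (9.10 to 9.35) on replicate 6.

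CON-LFD replicate 1 was low for Rufy2, 9.17 (10.05 to 10.52), Zfp605, 7.80 (8.60 to 9.02), Hk2, 9.68 (10.35 to 10.68), Pgm2, 10.13 (11.00 to 11.47), Acad11, 6.02 (6.80 to 7.23), and the growth factor list, 7.13 (7.39 to 7.53), and high for the skin list, 3.71 (3.51 to 3.57). CON-LFD replicate 2 was high for the phospholipid list, 9.78 (9.53 to 9.62). CON-LFD replicate 3 had Cfb at 11.31 (10.44 to 10.76), Prodh at 7.07 (7.92 to 8.20) and the dendritic cell list at 8.08 (8.64 to 8.90). CON-LFD replicate 4 had Pyroxd2 at 9.53 (8.27 to 8.50), Foxo4 at 8.65 (9.18 to 9.49) and Col15a1 at 4.18 (6.14 to 7.09). CON-LFD replicate 5 had Cnrip1 at 10.23 (11.20 to 11.72), Slc7a2 at 8.17 (5.91 to 6.65) and Gpnmb at 10.49 (12.65 to 13.81), and CON-LFD replicate 6 had Nadsyn1 at 5.61 (6.01 to 6.12).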

How the results depend on the processing

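Counts of genes moved widely with the processing, and what moved each count was not tested. The 1 gene with an adjusted p below 0.05 became 48 when genes at low signal were left out, 5 with only the 12 arrays, 6 with an intensity trend, 3 after quantile normalization, 13 with array weights, 2 with a muscle covariate, 66 without the 2 arrays of conflicting labels, 196 with groups from the source names and 5 without the muscle-rich arrays. The 129 genes below 0.1 became 371 with the low-signal filter, 283 with the trend, 56 with the muscle covariate, 280 without the 2 arrays, 547 with source-name groups and 18 without the muscle-rich arrays. Genes without overlap became 754 without the muscle-rich arrays, which leaves fewer arrays to overlap. Leaving out 1 array at a time gave 0 to 60, 0 to 281 and 269 to 461. After centering each array, genes below 0.1 were 87 higher and 41 lower, against 52 and 77. The replicate number as a block gave 1 gene below 0.05 and 89 below 0.1, 5 higher and 84 lower, 39 of them among the 129. Samples with the same number did not deviate together (correlations from -0.15 to 0.18, 1 of 6 above 0.1). The labels do not say whether the numbers pair the samples, and 6 correlations cannot exclude it.

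Over the alternatives, 1 named gene changed sign, Lep, at -0.31 without DIO-HFD replicate 5 (-0.31 to 1.79 over the arrays left out, against 1.31), and the other named genes kept their direction. Of 42 named genes with an adjusted p below 0.1, 24 stayed below it with only the 12 arrays, 21 with the muscle covariate, 16 with the block, 5 without the muscle-rich arrays and 0 to 42 when 1 array was left out, with 0 for DIO-HFD replicate 1 and for CON-LFD replicate 6. No list median that had moved by more than its spread between arrays had been called.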

Other observations

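Zinc finger genes and a set of transport genes of cilia leaned higher in DIO-HFD, a pattern noticed in the values and given here with no test. Of 384 genes named Zfp, Zkscan or Zscan, most of them DNA-binding repressors, 268 were higher and 115 lower. At an unadjusted p below 0.05, 77 were higher (20.1%) and 13 lower, beside 7.53% and 5.89% of all genes. Their median difference was 0.19, 0.23 after quantile normalization, 0.31 after centering each array and 0.21 without the muscle-rich arrays, beside 0.03, 0.03, 0.14 and 0.02 for all genes. Centering added the same amount to every gene, so it could not change this order and was no check of it. Their mean was 8.01 to 8.24 in DIO-HFD arrays and 7.76 to 7.97 in CON-LFD arrays, without overlap. On chromosome 13, 91 of 740 genes were higher at an unadjusted p below 0.05 (12.3%, the highest share of any chromosome), 20 of them zinc finger genes out of 38. Among 22 genes of intraflagellar transport and the BBSome, which move cargo in cilia, 7 were higher and 0 lower at that p, with a median of 0.36, and the means of the set, 8.67 to 9.02 in DIO-HFD arrays and 8.48 to 8.75 in CON-LFD arrays, overlapped.

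Some of the larger higher differences fell outside the lists and the rule for named genes and were picked after their values were seen. Esm1 was at 5.07 to 8.73 (median 6.01) in DIO-HFD and at 3.37 to 5.76 (median 4.58) in CON-LFD. Cldn5, a tight junction protein of endothelium, was at 5.47 to 8.52 (median 7.76) in DIO-HFD and at 5.41 to 7.16 (median 6.05) in CON-LFD, while the endothelial list had a median of -0.09. The inducible heat shock genes Hspa1a and Hspa1b differed by 1.54 and 1.56, and Gem, a small GTPase, by 1.68, at 9.94 to 11.32 in DIO-HFD and 6.92 to 10.16 in CON-LFD. By limma with Benjamini-Hochberg adjustment these had adjusted p from 0.149 to 0.301 and overlapped between the groups. Gpnmb, a glycoprotein of lipid-laden macrophages, was at 13.03 to 14.95 in DIO-HFD and at 10.49 to 13.81 in CON-LFD, with overlap (difference 1.30, adjusted p = 0.274), while 17 of 18 macrophage markers were lower. Its difference was 0.83 without CON-LFD replicate 5, its lowest array, and 0.69 without the muscle-rich arrays. The neutrophil genes S100a8 and S100a9 differed by 1.29 and 1.05 with wide spread (adjusted p = 0.436 and 0.544). Without DIO-HFD replicate 6 these differences were 0.71 for S100a8 and 0.38 for S100a9, and S100a9 was 0.69 without CON-LFD replicate 1. Gem differed by 0.99 without the muscle-rich arrays, as S100a8 did by 0.85 and S100a9 by 0.68.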
